A study of Rattus norvegicus with 24 samples.

Results

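Segment 2 was compared with Segment 1 in wounds treated with CuNZ@Gel, a hydrogel whose composition the labels do not give. The members are the 8 CuNZ@Gel areas of 24 areas in the series, 4 named Segment 1 and 4 named Segment 2. They were chosen by treatment and segment name and pair up by region, with regions 1 and 2 of specimens 1 and 2. All areas came from skin wounds of male SD rats made diabetic with STZ at 5 weeks of age. Full-thickness defects of 8 mm were splinted and taken at day 7 from Sham, Gel or CuNZ@Gel wounds, with 2 specimens per treatment, and fixed tissue sections were profiled with GeoMx, which releases probe tags by light from areas drawn on a stained section. The labels name neither the stains nor the property that sets the segments apart, leave "mac" in the region names unexplained, and do not say whether a numbered specimen is 1 animal. There is no wound from a rat without diabetes among the 24 areas, and each treatment rests on 2 specimens. If specimens of a treatment share an animal, the p-values measure only the spread within it.

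A healing wound fills with granulation tissue, in which new capillaries grow among fibroblasts and macrophages. Endothelial cells line the vessels and lay down, with the pericytes around them, a basement membrane of type IV collagen, laminin and perlecan. Macrophages clear debris and release signals to both, and fibroblasts make the fibrillar collagen of the new matrix.

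CuNZ@Gel Segment 1 areas held 358592 to 831658 counts (median 502041) and Segment 2 areas 86386 to 244550 (median 201448.5). Segment 1 was deeper by 9.63 and 3.2 times in regions 1 and 2 of specimen 1, and by 1.57 and 1.83 times in regions 1 and 2 of specimen 2. The deposited signal had been scaled so that the 75th percentile of every area lay near 12, which was only 4 counts in the shallowest Segment 2 area and 30 in its Segment 1 partner. A target was taken as well above background when its signal averaged at least 2 times the 99th percentile of the odorant and pheromone receptor targets over the 8 areas. Of 19728 targets tested, 1870 passed. The mean runs over both segments, so a target that is high in Segment 1 can pass although it is near background in Segment 2. A separate fit took only the 734 targets at 4 times background or more, with its own spread and p-values adjusted over those 734. It called 137 lower, 48 of them among the 78 that the fit on all 19728 targets called lower well above background. The 2 numbers of calls are therefore not on 1 scale. The Segment 2 area of specimen 2, region 2 stood nearer to its Segment 1 partner than the other 3 did, so values without that region are given beside the leading genes.

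The endothelial receptor gene Aplnr, the endothelial transcription factor gene Sox18, the vascular adhesion gene Mcam and the basement membrane collagen gene Col4a1 fell by 1.37 to 1.69 on the log2 scale, which put Segment 1 at 2.39 to 2.74 times Segment 2 by the mean signal. Of 16 endothelial marker genes 2 (Sox18 and Plvap) were called lower, and of 14 pericyte and smooth muscle marker genes 4. The share was 0.563% over all targets tested and 4.17% over those well above background. Of the 4, Cspg4 and Abcc9 had signals under 2 times background, and Rgs5 passed that filter through Segment 1. Without specimen 2, region 1 the calls of all 4, and of Aplnr and Plvap, were lost, while that of Sox18 was kept. In that region the Segment 2 area had the highest receptor background of the series (21.4). In the other Segment 2 areas of CuNZ@Gel the background was 15.3 to 16. The Segment 2 signals of Plvap, Mcam and Cd34 in that region stood close to it. Macrophage marker genes did not pass the test, and of the fibroblast marker genes only Thy1 did. No target well above background was called higher in Segment 2. All differences below are Segment 2 minus Segment 1 in log2(signal + 1), from limma with the specimen as a block, and p-values are adjusted over the 19728 targets. In areas that hold many cells, fewer cells of a type and less RNA per cell cannot be told apart.

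Of the 19728 targets, 111 were called lower in Segment 2 (0.563%) and 9 higher (0.0456%), at an adjusted p under 0.05. Of the 1870 targets well above background, 78 were called lower (4.17%) and 0 higher (0%). At an unadjusted p under 0.05 there were 517 of the 1870. Among the 78, 66 were lower in 4 of 4 regions and 12 in 3 of 4, and in 41 the Segment 1 and Segment 2 areas did not overlap. The 78 were chosen on the mean of these regions, so these counts only describe them. Of all 1870 targets, 87.5% and 72.1% were lower in regions 1 and 2 of specimen 1, and 73.9% and 55.5% in those of specimen 2. Over all 1870 targets, 248 (13.3%) had every Segment 2 area below every Segment 1 area, and 4 (0.214%) had the reverse. The median difference was -0.0909 over all targets tested and -0.23 over the 1870, of which 87.9% were below 0. On the deposited scaling a small negative difference was therefore usual for a well-measured target. The 75th percentile of that scaling lay at or below the receptor background of every CuNZ@Gel area. That background was 12.3 to 13.8 in Segment 1 and 15.3 to 21.4 in Segment 2. Under median scaling and quantile normalization the median over the 1870 was -0.04 and -0.02.

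**Figure D1:**
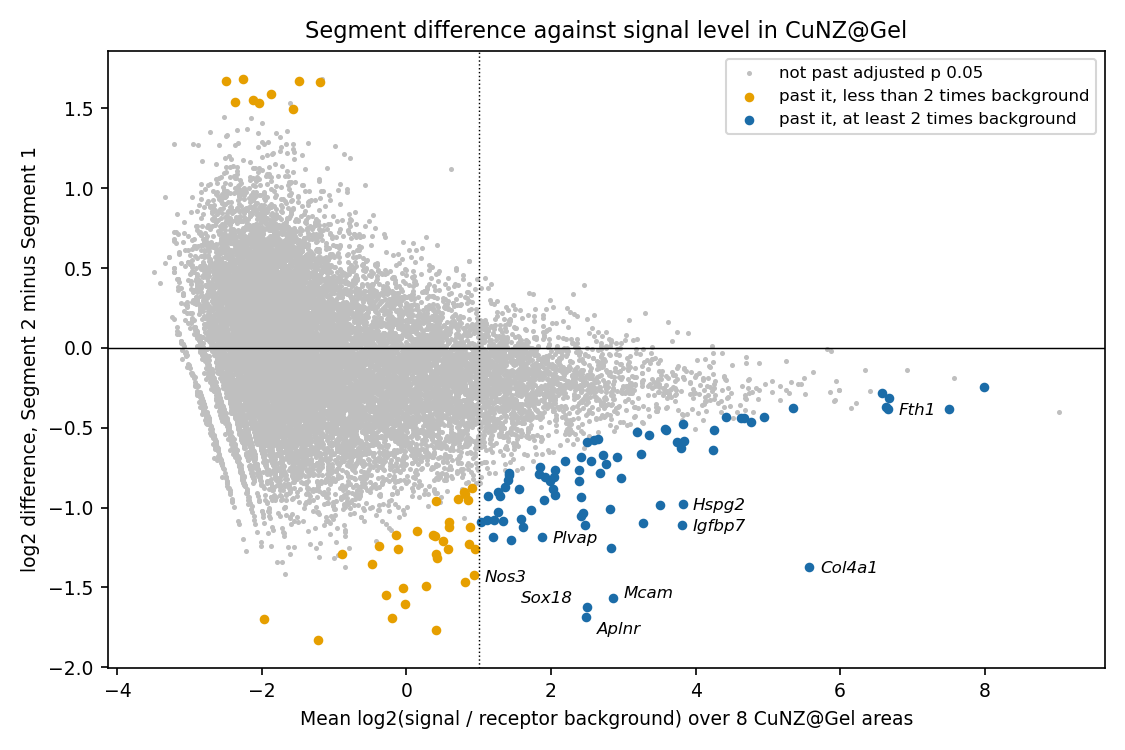
Segment difference (y axis, log2, Segment 2 minus Segment 1) of all 19728 targets against their mean log2 signal over the receptor background in the 8 CuNZ@Gel areas (x axis), with targets past the adjusted p of 0.05 in blue (well above background) or orange (less than that) and the dotted line at 2 times background. Right of the dotted line every coloured point lies below 0, with Aplnr, Sox18, Mcam and Col4a1 lowest, and the 9 targets called higher all lie far to its left.

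Among receptors and regulators of endothelial cells, Aplnr, which encodes the apelin receptor of sprouting vessels, had the largest fall of any target well above background. Its signal in the 4 Segment 1 areas was 145, 115, 197 and 157 (regions 1 and 2 of specimen 1, then of specimen 2), and in the matched Segment 2 areas 24.5, 42.0, 34.1 and 127. The first 3 Segment 2 areas lay far below all of Segment 1, while that of specimen 2, region 2 lay among the Segment 1 values. The specimen means were 154 ± 33.3 in Segment 1 and 56.8 ± 33.3 in Segment 2 (SD, n = 2), a difference of -1.69 (SE 0.17, limma adjusted p = 1.22e-10). Without specimen 2, region 1 the difference was -1.14 and the call was lost (adjusted p = 0.289); without specimen 2, region 2 it was -2.24 (adjusted p = 4.66e-12). The call was also lost without the specimen as a block (adjusted p = 0.660) and on the 8 CuNZ@Gel areas alone with the region as a block (adjusted p = 0.186), and the fit used an SD of 0.169 where the residual SD of Aplnr was 0.302.

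Sox18, a transcription factor gene of developing vessels, was lower in 4 of 4 regions. Segment 1 held 151, 124, 169 and 156 and Segment 2 held 36.8, 42.0, 30.0 and 110.4, so that the highest Segment 2 area stayed below the lowest Segment 1 area. The difference was -1.63 (SE 0.15, limma adjusted p = 1.03e-11), with specimen means of 150.1 ± 17.2 and 54.8 ± 21.8 (SD, n = 2). Of 27 alternatives run, the call was lost in 1, limma without the mean-variance trend and the robust step (adjusted p = 0.641), which left 0 of the 78 calls. Leaving out specimen 2, region 1 or specimen 2, region 2 gave -1.13 and -2.12, both called.

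Plvap encodes the diaphragm protein of fenestrated endothelium. Its Segment 1 areas stood at 73.6, 93.8, 102 and 68.2 and its Segment 2 areas at 30.7, 52.6, 23.2 and 45.0, with no overlap. The value of 23.2 lay near the receptor background of its area (21.4). The difference was -1.19 (SE 0.19, limma adjusted p = 3.64e-05); without specimen 2, region 1 it was -0.81 and not called (adjusted p = 0.0828), and without specimen 2, region 2 it was -1.56 (adjusted p = 2.44e-06). Plvap and Sox18 were the only 2 of the 16 endothelial marker genes well above background, and both fell. The summed signal of the 16 was 334 to 385 in Segment 1 areas and 112 to 273 in Segment 2 areas. Sox18 (means of 150.1 and 54.8) and Plvap (84.4 and 37.8) were its largest parts, so the sum mainly repeats their fall. The median difference of all 16 was -0.19.

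Several defining endothelial genes were not measured above background. Pecam1 ran from 1.53 to 11.3 in Segment 1 and from 3.50 to 9.20 in Segment 2, Vwf from 1.89 to 5.52 and from 1.36 to 6.13, and the receptor background was 12.3 to 13.8 and 15.3 to 21.4. Cdh5, the gene of the endothelial cadherin, stood at 7.36, 7.36, 13.2 and 7.67 in Segment 1 and at 3.07, 5.26, 2.73 and 5.45 in Segment 2, also below it (difference -0.95, adjusted p = 0.348). The signals of Pecam1, Vwf and Cdh5 are a bound on the level and give no segment difference. Flt1 (means of 26.18 in Segment 1 and 19.36 in Segment 2), Sox17 (17.05 and 9.332) and Cldn5 (16.15 and 15.66) averaged above the Segment 1 background. None of these was called. A weak probe for the rat transcript and a low transcript level cannot be told apart, as probe sequences were not analysed here.

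Of 22 genes of angiogenic and vascular signalling, 3 were called lower and 0 higher. Besides Aplnr these were Ephb4, a receptor gene of venous endothelium (-0.79, adjusted p = 0.0141, limma; lost under 12 of 26 alternatives, among them median scaling, edgeR and the omission of specimen 1, adjusted p = 0.411, or of specimen 2, region 1, adjusted p = 0.251), and Nos3, the endothelial nitric oxide synthase gene. Nos3 stood at 51.1, 43.5, 53.8 and 42.2 in Segment 1 and at 12.3, 14.0, 17.7 and 27.3 in Segment 2 (-1.43, SE 0.21, limma adjusted p = 7.61e-06), and just missed the filter of 2 times background. Without specimen 1 its difference was -1.08 and not called (adjusted p = 0.0574). The groups of Nos3 areas did not overlap, but only 1 of the 4 Segment 2 areas was above the receptor background. Nrp1, a co-receptor gene for VEGF, differed by -0.66 (adjusted p = 0.0630) and Dll4, a Notch ligand gene of tip cells, by -0.65 (adjusted p = 0.251), and neither was called by limma. The 4 genes of the list well above background had a median of -0.73 against -0.23 over all 1870 targets.

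The mural cells around vessels gave a split picture. Mcam, which encodes the adhesion molecule CD146 of endothelial cells and pericytes, stood at 187, 196, 212 and 159 in Segment 1 and at 64.4, 56.1, 25.9 and 161 in Segment 2. The signal was far lower in 3 regions and level in specimen 2, region 2. The difference was -1.57 (SE 0.15, limma adjusted p = 2.4e-11), and -0.82 with the call lost without specimen 2, region 1 (adjusted p = 0.414). Without specimen 2, region 2 it was -2.32 (adjusted p = 0.00156), and with the region as a block the call was lost, over 24 areas (adjusted p = 0.148) and over the CuNZ@Gel areas (adjusted p = 0.646). Rgs5, a gene of pericytes, went from 64.6, 95.7, 48.1 and 22.2 to 27.6, 31.5, 13.6 and 25.9 (-1.08, adjusted p = 0.00541), with the same region out of step; its difference was -0.59 without specimen 2, region 1 (adjusted p = 0.583), -1.57 without specimen 2, region 2 (adjusted p = 6.84e-05) and -0.77 without specimen 1 (adjusted p = 0.562).

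Rgs5 passed the filter of 2 times background through its Segment 1 areas. In Segment 2 it lay below the receptor background of 21.4 in specimen 2, region 1, and the other areas had backgrounds of 15.3 to 16. The pericyte genes Cspg4 (-1.29, adjusted p = 0.0203) and Abcc9 (-1.26, adjusted p = 0.000544, limma) also fell, at signals under 2 times background. Without specimen 2, region 1 both calls were lost (adjusted p = 0.207 and 0.135), and without specimen 1 as well (0.592 and 0.0986 as the adjusted p), and that of Cspg4 also without specimen 1, region 1 (adjusted p = 0.0997). They differed by -1.56 and -1.64 without specimen 2, region 2, both called. The contractile genes of smooth muscle cells and myofibroblasts did not pass: Acta2 differed by -0.31 (adjusted p = 0.401) and Tagln by -0.07 (adjusted p = 0.964). Acta2 was lower in 3 of 4 regions and Tagln in 2. In all, 4 of 14 pericyte and smooth muscle marker genes were called lower and 0 higher.

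**Figure D2:**
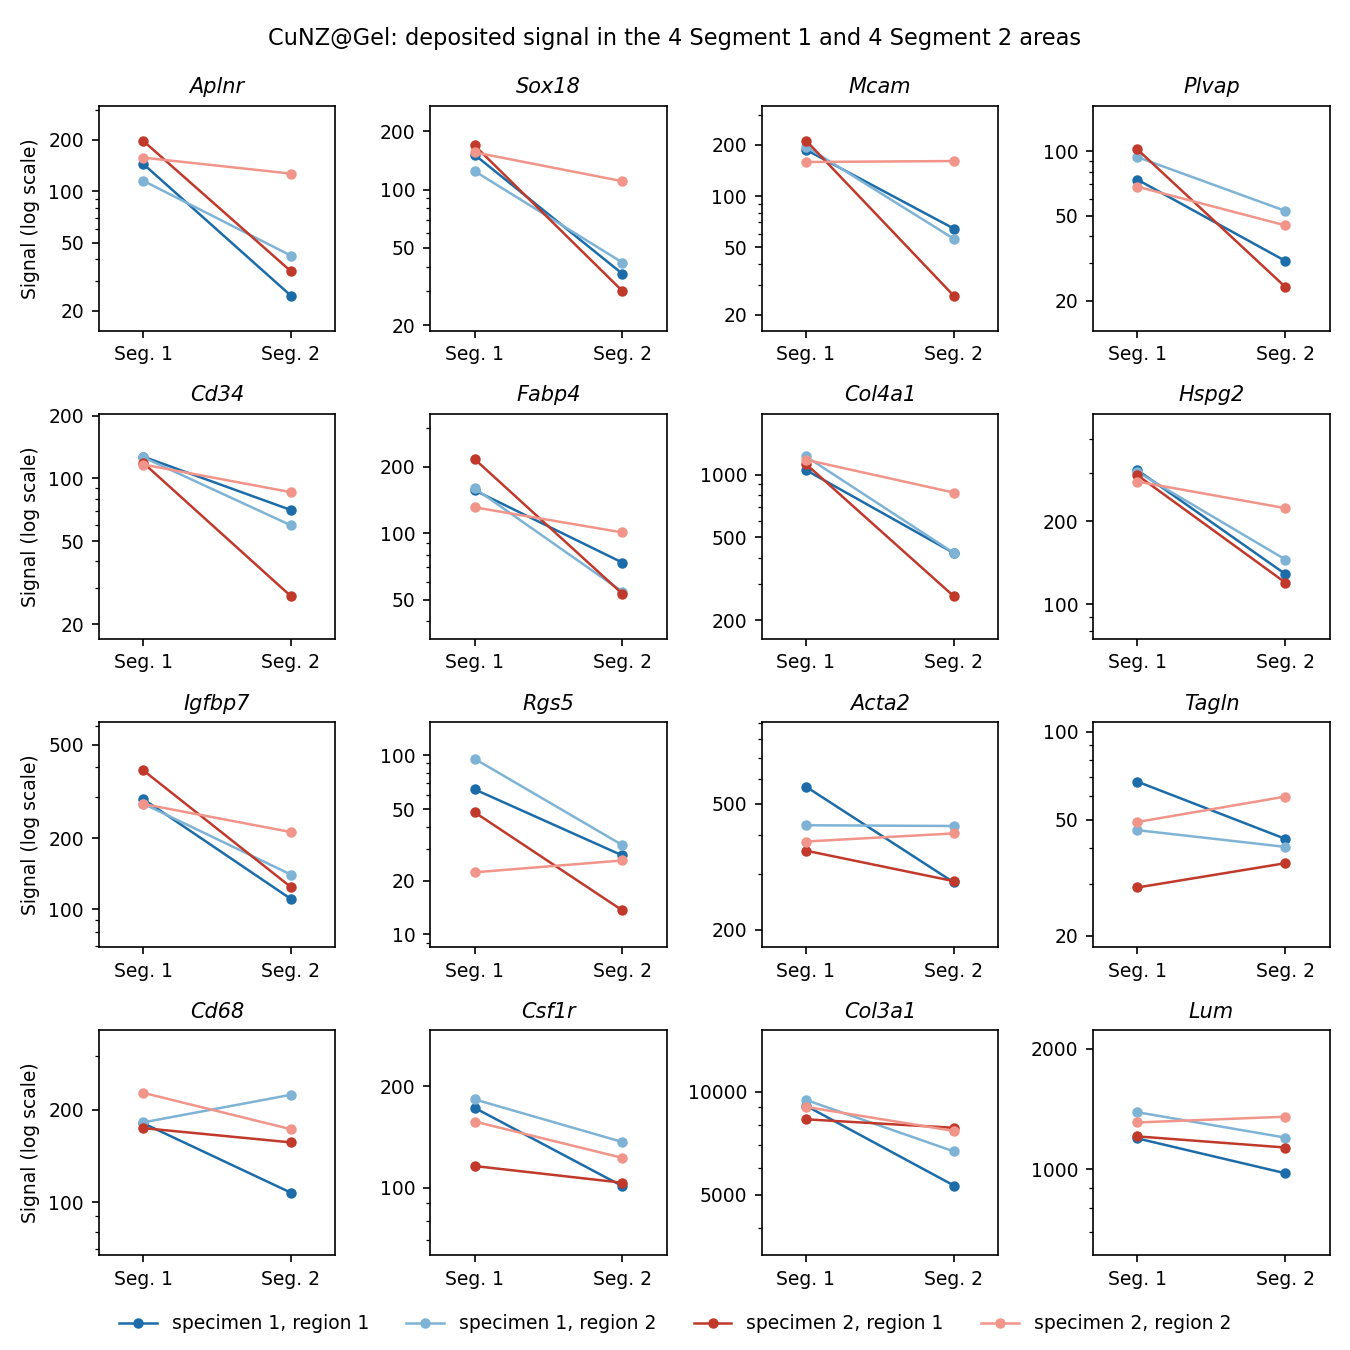
Deposited signal (y axis, log scale) of 16 genes in the 4 Segment 1 and 4 Segment 2 areas of CuNZ@Gel, each line joining the areas of 1 region. The lines of Aplnr, Sox18, Mcam, Plvap, Col4a1 and Hspg2 run down in 3 regions and less so, or level for Mcam, in specimen 2, region 2, while Tagln and Cd68 have lines in both directions.

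Of 13 basement membrane genes, 2 were called lower and 0 higher. Col4a1, a chain of type IV collagen, had the smallest p of the 78: Segment 1 areas stood at 1052, 1224, 1125 and 1180, and Segment 2 areas at 420.0, 420.5, 260.3 and 820.3. No Segment 2 area reached a Segment 1 area. The specimen means were 1145 ± 10.2 and 480.3 ± 84.9 (SD, n = 2), with a difference of -1.37 (SE 0.09, limma adjusted p = 2.93e-18); it was -0.98 without specimen 2, region 1 and -1.77 without specimen 2, region 2, both called. Fitted on the 8 CuNZ@Gel areas alone with each region as a block, the Col4a1 difference was not called (adjusted p = 0.0748). The residual SD of Col4a1 was 0.109 and the fit used 0.0881, since limma draws each target's spread towards that of targets of similar signal.

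Hspg2 encodes perlecan, the large proteoglycan of vessel basement membranes. It stood at 307, 302, 294 and 279 in Segment 1 and at 129, 145, 119.9 and 223 in Segment 2, without overlap (-0.98, SE 0.12, limma adjusted p = 2.54e-07). The laminin genes Lama4 (-0.41, adjusted p = 0.101) and Lamb2 (-0.39, adjusted p = 0.526) and the matricellular gene Sparc (-0.19, adjusted p = 0.875) were lower but not called. The 5 members well above background had a median of -0.41.

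Col15a1, whose collagen sits between basement membrane and stroma, was the 1 of 16 fibrillar and associated collagen genes called lower (-1.10, SE 0.14, limma adjusted p = 1.92e-07). Its Segment 1 areas held 179, 166, 284 and 236 and its Segment 2 areas 52.1, 147, 61.3 and 195. Regions 1 of both specimens dropped sharply and regions 2 of both little, and the groups overlapped. The call was lost without specimen 1, region 1 (-0.70, adjusted p = 0.209), specimen 2, region 1 (-0.62, adjusted p = 0.0833) or specimen 2, region 2 (-1.58, adjusted p = 0.0568), and with the region as a block (adjusted p = 0.260 over 24 areas). Col1a1 (-0.33, adjusted p = 0.711) and Col3a1 (-0.40, adjusted p = 0.818), the main collagens of granulation tissue, were not called; all 4 Col3a1 areas of Segment 2 (5313 to 7846) lay below those of Segment 1 (8309 to 9470).

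Other genes among the 12 largest falls that went the same way in all 4 regions included Cd34, a surface sialomucin gene of endothelial and some stromal cells. Cd34 stood at 127, 126, 119 and 117 in Segment 1 and at 70.5, 59.6, 27.3 and 85.8 in Segment 2 (-1.11, SE 0.16, limma adjusted p = 3.24e-06). Igfbp7, a secreted protein gene deposited around vessels, stood at 294, 281, 389.6 and 279.8 in Segment 1 and at 110.4, 140.2, 124 and 213 in Segment 2 (-1.11, SE 0.13, adjusted p = 2.31e-08). Neither gene's areas overlapped between the segments. Without specimen 2, region 1 Cd34 differed by -0.70 and was not called (adjusted p = 0.0687), and Igfbp7 by -0.80 and was called (adjusted p = 0.00476). They differed by -1.52 and -1.42 without specimen 2, region 2, both called. Over 24 areas with the region as a block Cd34 was not called (adjusted p = 0.0563).

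Fabp4 encodes a fatty acid binding protein of adipocytes and of capillary endothelium. It stood at 157, 160.0, 217 and 131 in Segment 1 and at 73.6, 54.3, 53.1 and 101 in Segment 2 (-1.25, SE 0.18, limma adjusted p = 1.7e-05; -0.84, adjusted p = 0.106, without specimen 2, region 1; -1.66, adjusted p = 0.00505, without specimen 2, region 2). It was not called without specimen 1 (adjusted p = 0.213) or over 24 areas with the region as a block (adjusted p = 0.102). It was the 1 of 10 adipocyte marker genes well above background, and the sum of the 10 was 170.2 to 256 in Segment 1 and 87.2 to 149.9 in Segment 2. Most of that sum was Fabp4 itself (means of 166.2 and 70.5), and the median difference of the 10 was -0.10. Fgl2, a fibrinogen-like prothrombinase gene, went from 49.5 to 72.8 in Segment 1 down to 15.3 to 46.3 in Segment 2 (-1.21, adjusted p = 0.000211), and Gng11, a G protein subunit gene, from 65.1 to 71.7 down to 18.4 to 49.1 (-1.12, adjusted p = 0.000223). Gm13889 (-1.18) and the transcription factor gene Nfib (-1.09) completed the 12, with Segment 2 areas at or near background in part. Without specimen 1 the calls of Fgl2 (adjusted p = 0.0824), Gng11 (0.0574), Gm13889 (0.278) and Nfib (0.663) were lost, and Gm13889 and Nfib each lost theirs under 8 of 26 alternatives, among them the omission of specimen 2, region 1 (adjusted p = 0.0604 and 0.135).

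A few more genes of the 78 are named here after their values were seen. Cav1, the main caveolin gene, stood at 135 to 191 in Segment 1 and 55.9 to 113 in Segment 2 (-1.01, adjusted p = 1.06e-05, limma). Ehd2, which stabilises caveolae, fell by 1.05 (adjusted p = 2.28e-05; -0.77, adjusted p = 0.132, without specimen 1). Cavin1, a caveolar coat gene, fell by 0.78, but the call was lost under 9 of 27 alternatives, quantile normalization, median scaling and edgeR among them. Rhob, a small GTPase gene, stood at 212 to 255 and 70.9 to 208 (-0.98, adjusted p = 3.2e-07). Among the 33 targets called lower with a signal under 2 times background were Efna1 (-1.47), an ephrin gene, Ptprb (-1.49), the endothelial phosphatase gene, and Erg (-0.95), an endothelial transcription factor gene. The 33 passed partly through Segment 1, where they were high, so their number gives no support of its own. The calls of Efna1, Ptprb and Erg were not followed over the alternatives.

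The promoter sequence was available from RefSeq (build GRCr8) for 56 of the 78 targets. It is shown for 3 of the targets that fell, Col4a1, Plvap and Cd34, as the 250 bases before the annotated start, 5′ to 3′ on the strand of the gene. Capitals mark GGAA and its reverse TTCC, the core bound by ETS factors, the family of Erg; other motifs may overlap them. Col4a1 lies at chr16:84885347-84885596 (plus strand), Plvap at chr16:18231280-18231529 (minus strand) and Cd34 at chr13:109008536-109008785 (plus strand).
Col4a1: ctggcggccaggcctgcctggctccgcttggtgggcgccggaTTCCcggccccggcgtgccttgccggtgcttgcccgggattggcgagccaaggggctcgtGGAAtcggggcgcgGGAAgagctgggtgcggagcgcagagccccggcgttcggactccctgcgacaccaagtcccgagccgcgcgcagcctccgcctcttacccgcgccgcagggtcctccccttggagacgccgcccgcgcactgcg
Plvap: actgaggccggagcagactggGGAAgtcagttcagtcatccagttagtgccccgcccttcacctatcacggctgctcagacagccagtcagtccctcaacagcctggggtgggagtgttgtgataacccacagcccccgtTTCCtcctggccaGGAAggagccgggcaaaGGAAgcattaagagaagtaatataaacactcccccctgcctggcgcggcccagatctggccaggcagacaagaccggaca
Cd34: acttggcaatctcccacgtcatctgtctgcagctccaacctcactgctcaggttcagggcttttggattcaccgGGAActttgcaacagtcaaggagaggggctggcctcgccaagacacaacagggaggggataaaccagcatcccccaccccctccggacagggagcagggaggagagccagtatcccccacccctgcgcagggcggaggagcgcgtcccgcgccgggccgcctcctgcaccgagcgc
They held 3, 4 and 1 matches on either strand. GGAA or TTCC was found in 53 of the 56 promoters (94.6%), in 93.0% of 1478 promoters of targets well above background, and in 93.2% of all 33469 promoters of that length, so its presence did not set the targets that fell apart from the rest.

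No macrophage marker gene was called. Of the 16, 7 were well above background, and the other 9, Adgre1 among them, did not reach it. Of the 7, Csf1r and Fcer1g had an unadjusted p under 0.05. Cd68, a lysosomal glycoprotein gene, stood at 181, 182, 175 and 228 in Segment 1 and at 107, 224, 157 and 173 in Segment 2 (-0.25, SE 0.13, limma adjusted p = 0.541). Csf1r, the receptor gene for macrophage growth factor, was lower in 4 of 4 regions with overlapping groups (173, 183, 116 and 157 against 101, 137, 104 and 123; -0.42, SE 0.14, adjusted p = 0.180), and the complement gene C1qc differed by 0.04 (adjusted p = 0.962). The median of the 7 was -0.25, near the -0.23 of all 1870 targets, and the summed signal of the 16 was 1230 to 1513 in Segment 1 and 1116 to 1285 in Segment 2. Of 20 genes of alternatively activated macrophages 0 were called, among them Arg1 (-0.29, adjusted p = 0.625) and Stab1 (-0.24, adjusted p = 0.711).

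Of 20 lysosome and lipid handling genes, 2 were called lower. Cd36, a fatty acid receptor gene of macrophages and capillary endothelium, differed by -0.92 (adjusted p = 0.00223; -0.59, adjusted p = 0.257, without specimen 2, region 1, and -1.26, adjusted p = 5.83e-05, without specimen 2, region 2), and Lgmn, a lysosomal protease gene, by -0.29 (adjusted p = 0.0342, lost under 21 of 27 alternatives). Cd36 was not called without specimen 1 (adjusted p = 0.250) or without its region 2 alone (adjusted p = 0.168). None of 10 genes of MHC class II presentation, 16 of complement, 20 interferon-inducible genes and 22 inflammatory cytokine and chemokine genes was called. The chemokine gene Ccl5 stood at 38.6 to 121 in Segment 1 and 57.8 to 135 in Segment 2, with a residual spread so wide (SE 0.64) that a difference of 0.20 could not be told from 0.

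Of 15 fibroblast marker genes 10 were well above background and 1 was called lower. Thy1, a surface glycoprotein gene shared by fibroblasts and some vascular cells, stood at 187, 166, 161 and 116 in Segment 1 and at 82.8, 82.3, 79.0 and 110.4 in Segment 2 (-0.81, SE 0.15, limma adjusted p = 0.000618; -0.57, adjusted p = 0.170, without specimen 2, region 1, and -1.05, adjusted p = 4.34e-06, without specimen 2, region 2). Without specimen 1 it was not called either (-0.54, adjusted p = 0.415). Lum (-0.14), Prrx1 (0.16), Pdgfra (-0.17) and Fap (-0.38) were not called, and the median of the 10 was -0.25. Their list summed to 11840 to 13060 in Segment 1 and 7763 to 11210 in Segment 2, most of it Col3a1. None of 22 matrix glycoprotein and proteoglycan genes, 18 matrix protease and inhibitor genes and 23 wound growth factor and receptor genes passed, with medians of -0.14, -0.28 and -0.04 over their members well above background.

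**Figure D3:**
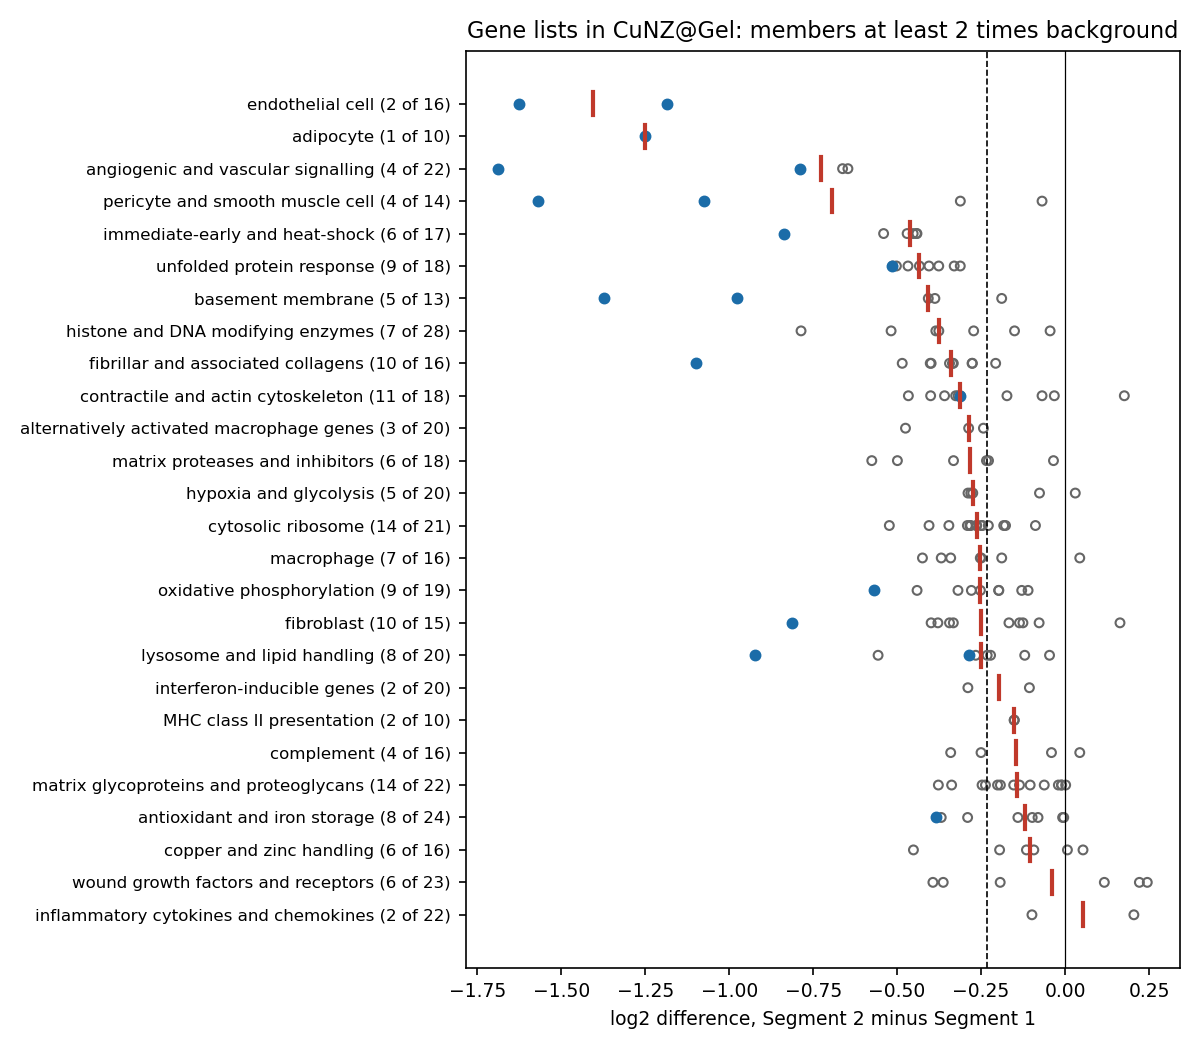
Segment difference (x axis, log2, Segment 2 minus Segment 1) of the members of each gene list that were well above background in CuNZ@Gel, with the number of such members of all listed genes in brackets. Filled points passed the adjusted p of 0.05, red bars are list medians, and the dashed line is the median of all 1870 targets; the endothelial, adipocyte, vascular signalling and mural cell lists hold the lowest medians, and every filled point is left of 0.

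In the remaining lists single genes were called lower. These were Hspb1, a small heat-shock gene (-0.84, adjusted p = 0.00206, and -0.58, adjusted p = 0.205, without specimen 2, region 1, or -1.09, adjusted p = 5.14e-05, without specimen 2, region 2; not called without specimen 1, adjusted p = 0.213), Pdia6 of the unfolded protein response (-0.52, adjusted p = 0.0255), Atp5b of oxidative phosphorylation (-0.57, adjusted p = 0.0495), Actb of the actin cytoskeleton (-0.31, adjusted p = 0.0428), Fth1, the ferritin heavy chain gene (-0.38, adjusted p = 0.000847), and Ccnd1 of the proliferation genes (-1.23, adjusted p = 0.00148, at under 2 times background). The calls of Pdia6, Atp5b, Actb, Fth1 and Ccnd1 were lost under 11 or more alternatives, and those of Pdia6, Atp5b, Actb and Fth1 when areas were scaled to the median of the targets well above background. Uncalled members of 2 of these lists were lower too. The 9 unfolded protein response genes well above background lay at -0.52 to -0.31 (median -0.43). The 6 immediate-early and heat-shock genes lay at -0.84 to -0.44 (median -0.46), against -0.41 for the basement membrane list. Medians were -0.25 for oxidative phosphorylation and -0.12 for antioxidant and iron storage genes. None of the listed genes of the cytosolic ribosome, of hypoxia and glycolysis, or of histone and DNA modifying enzymes was called. Of 16 copper and zinc handling genes 0 were called either: Mt2, a metallothionein gene, stood at 437, 518, 509 and 360.3 in Segment 1 and at 386, 369.7, 599.6 and 375 in Segment 2 (-0.09, SE 0.10, adjusted p = 0.842).

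Markers of other cell types lay low in both segments. No member of the lists for neutrophils, dendritic cells, T cells, B and plasma cells, mast cells, lymphatic endothelium, keratinocytes, skeletal muscle, Schwann cells, melanocytes or erythroid cells was well above background, and none was called. The 16 keratinocyte genes summed to 67.0 to 71.8 in Segment 1 and 65.4 to 72.2 in Segment 2, and the neutrophil genes to 45.3 to 65.6 and 46.3 to 73.6. The erythroid sum was 27.0 to 215 in Segment 1 and 26.3 to 40.9 in Segment 2. Its high end came from Hba-a1, a haemoglobin gene, which was 186 in the Segment 1 area of specimen 2, region 1 and 10.5 to 35.6 in the other 7 areas. That region also had the steepest falls of Mcam, Plvap and Cd34, and the part of blood in the result was not tested.

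No gene well above background was called higher in Segment 2 by limma on the deposited scaling, although some had positive differences. Among the largest positive differences there, chosen after their values were seen, were Mrpl13 (0.44, limma adjusted p = 0.551) and Il33, an alarmin gene (0.40, adjusted p = 0.432). Il33 was higher in 3 of 4 regions, from 59.8 to 84.0 in Segment 1 and from 55.2 to 163 in Segment 2, and was called higher by edgeR on the recovered counts (0.69, adjusted p = 0.0217). The 9 targets called higher by limma all averaged below background (Ddx60, Nanog, Gm30732, Fn3krp, Mbd3l1, Ins2, 4931428F04Rik, Gm7168 and Gpc2). Ddx60 stood at 0.77 to 4.09 in Segment 1 and 5.45 to 8.76 in Segment 2, where a single count was worth 0.409 to 0.943 and 1.36 to 3.07. In 4931428F04Rik the mean rested on 311 in the Segment 2 area of specimen 2, region 1, against 1.75 to 9.20 in the other 7 areas.

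The segment difference also differed in size between regions. The median of the 78 was -1.12 and -0.70 in regions 1 and 2 of specimen 1 and -0.89 and -0.25 in regions 1 and 2 of specimen 2, against medians of -0.49, -0.19, -0.21 and -0.04 over all 1870 targets. The 78 were chosen on the mean of these regions, so their own level is a description. Without specimen 2, region 2 there were 160 calls among the 1870, with 74 of the 78 among them, and without specimen 2, region 1 there were 17. Without specimen 1, whose pairs differed most in depth, 14 remained called, and without specimen 2 there were 132. When every area was thinned to the smallest total and rescaled, 93 targets were called, 51 of them among the 78. The median over the 1870 was then -0.37. Thinned without rescaling, a setting chosen after seeing the data, 12 were called and the median was -0.06.

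The broad shift of well-measured targets depended on the scaling. Scaling every area to the median of those targets moved their median difference from -0.23 to -0.04, and quantile normalization moved it to -0.02. Under these settings 31 and 33 of the 78 stayed called. The 31 included the 12 largest falls among targets lower in all 4 regions, as well as Mcam, Cav1, Hspg2, Rhob and Thy1, whereas Vim, Actb, Tmsb4x and Fth1 did not stay called under the median scaling.

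Whether the segment difference was particular to CuNZ@Gel was asked by setting its segment difference against those of Sham and Gel. In Sham, 21 of the 1870 targets were called lower (1.12%) and 1 higher (0.0535%), and in Gel 69 were called lower (3.69%) and 0 higher (0%). The 78 had medians of -0.23 in Sham and -0.50 in Gel against -0.80 in CuNZ@Gel, where they were selected, while the medians of all 1870 were -0.08, -0.26 and -0.23. In Gel 77 of the 78 (98.7%) were lower, 30 of them called, and in Sham 62 (79.5%) were lower and 6 called. Most of the 1870 were lower as well, 92.1% in Gel and 64.5% in Sham. Col4a1 was called lower in all 3 treatments, with -0.65 (SE 0.09, adjusted p = 6.77e-06) in Sham and -0.98 (adjusted p = 9.36e-12, limma) in Gel, and so was Aplnr (-0.95 and -0.82).

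**Figure D4:**
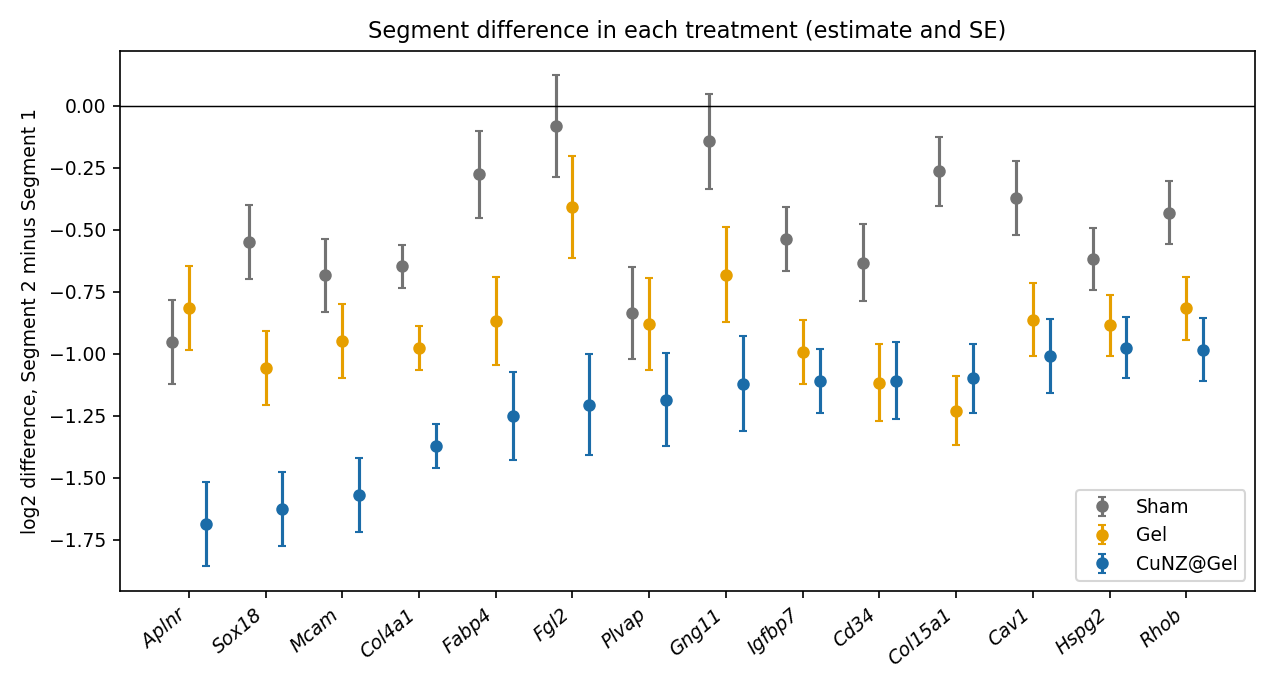
Segment difference (y axis, log2, Segment 2 minus Segment 1) of 14 genes that fell in CuNZ@Gel, in each treatment, as limma estimates with SE bars (2 specimens per treatment). All estimates lie below 0, and for Aplnr, Sox18, Mcam and Col4a1 the CuNZ@Gel point is the lowest, while for Cd34 and Col15a1 the Gel point is as low or lower.

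The test of the difference between CuNZ@Gel and the mean of the other treatments called 0 targets by limma, and 0 by edgeR and by DESeq2. By limma, 1183 of the 19728 targets had an unadjusted p under 0.05, a threshold that some targets pass by chance. Between CuNZ@Gel and Gel, limma called 0 (1062 of the 19728 at an unadjusted p under 0.05), edgeR 2 and DESeq2 0. Against the mean of the other treatments the smallest adjusted p was that of Col4a1, whose fall was larger by 0.56 (limma adjusted p = 0.0529). Between CuNZ@Gel and Sham 4 targets were called (0.0203%). The segment difference was more negative in CuNZ@Gel for Sox18 (by -1.08, adjusted p = 0.0387), Col4a1 (-0.73, adjusted p = 0.00510), Actb (-0.55, adjusted p = 0.0387) and Vim, the vimentin gene (-0.53, adjusted p = 0.0387). Actb and Vim differed by 0.24 and 0.16 in Sham, without a call there. The 4 calls were lost without specimen 1, region 2 of CuNZ@Gel (limma adjusted p = 0.314 for Col4a1) or its specimen 2, region 1 (0.841). Without specimen 1, region 1 only Col4a1 stayed called (limma adjusted p = 0.00121), and without specimen 2, region 2 Sox18, Actb and Vim did. They were also lost when either Gel specimen was left out, although the estimates did not change. None of the 4 calls held when either Sham specimen was left out (limma adjusted p of 0.0630 for Col4a1 to 1), and with the region as a block over 24 areas, of the 4 only Vim stayed called (adjusted p = 0.0197; 0.755 for Col4a1).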

How the data were processed

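GeoMx RNA probe counts were analysed for 24 areas. The deposited value is a signal per target (19963 targets), scaled by the authors; how the tags were counted, filtered and scaled is not stated in the labels. The 75th percentile of every area lay between 12 and 12.3, and 99.98% to 99.995% of values were whole multiples (within 0.01) of the area's lowest value, so counts were recovered for edgeR 4.0.16 and DESeq2 1.42.0. Of these, 19728 targets that exceeded the negative probe of the area in 4 or more areas were tested. The log2(signal + 1) values of the 2 regions of a specimen and segment were averaged (12 values, 6 specimens) and fitted with limma 3.58.1 in R 4.3.3 (eBayes with trend and robust), with the specimen as a block and the segment nested in treatment; fold changes on this scale understate those of low targets. The pairing of segments by region comes from the labels. The fit had 3 residual and about 55.8 prior degrees of freedom, so the spread is largely pooled over targets. SEs rest on that pooled spread. p-values were adjusted by Benjamini-Hochberg with a threshold of 0.05. Receptor background was the 99th percentile of 1127 receptor targets. The areas, the tests and the 38 gene lists (569 genes) were chosen with earlier results of these data known. Named genes were the 12 largest falls and rises well above background that went the same way in all 4 regions, up to 4 members of each list by p, and a preset group given whatever its values; others are marked as chosen after their values were seen. Symbols were used as deposited; 16665 equal a rat symbol of GRCr8. Alternatives covered scaling, filter, pseudocount, test, unit, block and omission of each specimen and region.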

Additional observations from a re-analysis of the deposited data

Results flagged for a closer look

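In 7 of 72 groups of 4 CuNZ@Gel areas tested, 1 area stood apart from the other 3 by Dixon's ratio of gap to range, where chance gives about 1 in 20. Among Segment 1 areas, specimen 2, region 1 was the highest for Igfbp7 (ratio 0.851; 389.6 against 279.8 to 294) and for Cdh5 (0.932; 13.2 against 7.36 to 7.67). The Cd68 signal was highest in specimen 2, region 2 (0.840; 228 against 175 to 182), and that of S100a8, a neutrophil gene, was lowest in specimen 1, region 1 (0.856; 6.95 against 11.3 to 12.3). Among Segment 2 areas, Mt2 was highest in specimen 2, region 1 (0.909; 599.6 against 369.7 to 386), Pecam1 in specimen 1, region 1 (0.851; 9.20 against 3.50 to 4.09) and Krt5, a basal keratinocyte gene, in specimen 1, region 2 (0.831; 5.26 against 2.73 to 3.07). The Cdh5, S100a8, Pecam1 and Krt5 signals are near or below the receptor background.

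The segment difference differed between CuNZ@Gel and Sham for 4 genes by the limma test of the difference: Sox18 (-1.08), Col4a1 (-0.725), Actb (-0.555) and Vim (-0.529). Over the alternatives the adjusted p of Col4a1 ran from 2.3e-06 to 1 and that of Sox18 from 0.000211 to 1.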

How the results depend on the processing

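Counts are given as targets called lower, then the same among those well above background, then called higher, against 111, 78 and 9 in the report. They were 53 and 33 under quantile normalization, 48 and 31 under median scaling, 14, 12 and 2 when thinned with no rescaling, and 639, 327 and 0 with the background subtracted, which was fitted only on targets above it in at least 4 areas. They were 0, 0 and 0 for limma without trend and robust, 38, 29 and 39 for edgeR, 3, 3 and 0 for DESeq2, 67 and 47 with 4 higher for CuNZ@Gel areas alone, and 67 and 39 for CuNZ@Gel specimens alone. Without the specimen as a block, so with the segments not paired, they were 19, 11 and 0, with 0 calls against Sham. Fits on targets well above background alone called 162 lower and 0 higher, and on those at least 4 times background 137 and 0. Higher calls numbered 2 when thinned and rescaled, 5 at a pseudocount of 0.1, 16 at 10 and 14 with 24 areas and the region as a block. Among targets well above background 1 was called higher by edgeR (Il33) and 1 under quantile normalization (Sod2, 0.28, adjusted p = 0.0369). Leaving out each specimen or region gave 18 to 290 lower, 14 to 160 well above background and 2 to 30 higher; 0 of those well above background were higher.

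Against the other treatments (0 in the report), 1 target was called under quantile normalization, median scaling, a pseudocount of 0.1 and no filter, 6 when thinned, 2 at 4 times background, 5 with background subtracted, 2 with 24 areas, and 0 to 14 with a specimen or region left out. Against Sham (4), there were 7 under quantile normalization, median scaling and background subtraction, 17 thinned, 1 without rescaling and on targets well above background, 0 at a pseudocount of 10, with limma without trend, edgeR and DESeq2, and 0 to 31 left out. Against Gel (0), there were 1 under quantile normalization and at 4 times background, 2 by edgeR and 0 to 4 left out. Fth1 reversed under quantile normalization (0.0112). The fits thinned without rescaling and at 4 times background were chosen after seeing the data. All 78 calls were lost under at least 1 alternative. Col4a1 and Hspg2 were lost under 2 of 27 and Igfbp7 under 3. The cause of these changes was not tested. One count was worth up to 3.07 in Segment 2, and each treatment had 2 specimens.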
